A study of Mus musculus with 6 samples.

Results

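The genes described here are 10 enzymes that build complex N-glycans, namely the trimming enzymes *Man2a1* and *Man2a2*, the branching enzymes *Mgat1*, *Mgat2*, *Mgat3*, *Mgat4a*, *Mgat4b* and *Mgat5*, the core fucosyltransferase *Fut8* and the sialyltransferase *St6gal1*. They were taken by symbol from a table of 17428 genes, and all 10 were in the table and among the 13893 genes with enough coverage to be tested. The samples were stages of EpH4, a near-normal mouse mammary epithelial cell line that carries no engineered allele. The E cells were grown without TGFβ1, the M cells had 7 days of TGFβ1, and the RE cells had the same 7 days followed by another 4 days in medium without TGFβ1. All groups shared the same base medium with serum, antibiotics and insulin, and each group had 2 libraries from 2 biological replicates, 6 in all. The model is 1 cell line, and each library is the bulk RNA of a whole culture, so that fewer cells of a kind and less RNA per cell cannot be told apart. RNA was measured, and neither enzyme activity nor the glycans themselves.

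N-glycans are sugar chains that are added to asparagines of proteins in the endoplasmic reticulum and are remodelled in the Golgi. There, N-acetylglucosaminyltransferase I (*Mgat1*) adds the first antenna, the alpha-mannosidases II (*Man2a1* and *Man2a2*) remove mannoses, and *Mgat2* adds the next antenna, after which the *Mgat4* enzymes and *Mgat5* can add further branches. *Mgat3* encodes GnT-III, which adds a bisecting residue in the middle of the core and so hinders further branching, and in epithelial cells its product is known to modify E-cadherin.

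Coverage is the number of sequenced bases summed per gene, and is given after normalisation as its share of the library total in ppm. The libraries held between 35782513 and 47928557 reads' worth of 50 bases. The E replicates were less alike than those of the other groups: the log2 difference between replicates had an SD across all genes tested of 0.56 for E, 0.32 for M and 0.31 for RE. Of 6 epithelial markers, 5 were clearly present in all libraries (*Cdh1*, *Epcam*, *Krt8*, *Krt18* and *Cldn3*), whereas *Krt19* never passed 349 bases. Their sum fell without overlap, from between 1509 and 1871 ppm for E to between 1325 and 1357 for M and between 856 and 907 for RE. *Epcam* was at 347 and 279 ppm in the E libraries and between 123 and 137 in the others. *Krt18* was at 879.6 and 611 in the E libraries and at 270.1 and 312 in the RE libraries. Not every marker followed the sum. *Krt8* was higher in M than in E without overlap (315 and 323 ppm against 223 and 181) and lowest in RE (122 and 133). For *Cdh1* the E values (278 and 327 ppm) and the M values (244 and 303) overlapped. The fibroblast markers in the table (4 of 5 listed) summed to between 50.5 and 51.4 ppm for E, 472 and 585 for M and 280 and 367 for RE, almost all of it from *Col1a1* and *Pdgfra*, whereas *Thy1* never passed 50 bases. The order of these sums was that of *Col1a1*. *Pdgfra* was instead highest in the RE libraries, at 92.2 and 76.1 ppm against 29.9 and 33.2 in the M libraries, and *Dcn* was at 0 and 0.00679 in the M libraries and at 3.79 and 1.74 in the RE libraries. The epithelial and fibroblast sums differed between the stages, as did the glycan genes below, and their part in the results was not tested. The defining markers of leukocytes (*Ptprc*), of T cells (*Cd3e*) and of adipocytes (*Adipoq*) never passed 150 bases. Of the other leukocyte markers, *Cd68* was between 5.17 and 9.18 ppm in all libraries and *Itgam* reached at most 421 bases. Among 4 endothelial markers, *Cdh5* was at 0 for E, reached 2.33 and 2.07 ppm for M, and was 0.0423 and 0.0910 for RE. *Tek* was instead higher for E (0.254 and 0.190 ppm) than for M (0.0958 and 0.170). *Pecam1* was at 0.236 and 0.180 ppm for E, against 0.264 and 0.429 for M, and *Kdr* never passed 150 bases. *Fabp4*, an adipocyte gene, was at 8.98 and 3.10 ppm in the E cells.

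In E vs. M, *Mgat3* fell 40.5-fold and *Man2a2* fell 2.23-fold, whereas *St6gal1* rose 9.97-fold and *Man2a1* rose 2.58-fold. The other 6 genes were not called. A gene was called a DEG when its log2 fold change in limma was over 1 in size and its Benjamini-Hochberg adjusted p over all genes tested was under 0.01, and fold changes given as a number of folds are ratios of group means in ppm. The 2 rises and 2 falls among the 10 genes stand beside 8.58% of all genes tested called higher and 8.39% called lower in the M cells (17% either way). In 9 of the 10 genes the M libraries did not overlap the E libraries, which was also the case in 70.6% of all genes tested. At an unadjusted p below 0.05, 8 of the 10 genes differed, against 50.9% of all genes tested. The median log2 fold change of the 10 genes was 0.51, against 0.0013 over all genes tested.

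In M vs. RE, *Mgat3* rose 20.6-fold and *Man2a2* rose 2.06-fold in the RE cells, and limma called 0 of the 10 genes lower, with 5 lower at an unadjusted p below 0.05. At that unadjusted p, 7 of the 10 differed either way, against 42.7% of all genes tested. Over all genes tested, 8.08% were called higher and 4.79% lower (12.9% either way). The M and RE libraries did not overlap in any of the 10 genes, against 78.1% of all genes tested. The median of the 10 was −0.20, against −0.017 over all genes tested. In E vs. RE, *St6gal1*, 4.54-fold higher in the RE cells, was the gene called, against 6.2% called higher and 3.17% called lower over all genes tested (9.37% either way). Limma called 0 of the 10 lower, and at an unadjusted p below 0.05 it gave 4 higher and 2 lower, against 43.5% of all genes tested either way. The E and RE libraries did not overlap in 7 of the 10 genes, against 66.7% of all genes tested, and their median was 0.16, against 0.0079. The comparisons share libraries, since each stage enters 2 of them. When the libraries were scaled by their totals alone, the median log2 fold change over all genes moved to −0.29 in E vs. M and to 0.18 in M vs. RE. With that scaling, higher genes made up 30.5% of the E vs. M DEGs in place of 50.6%, and 73.8% in place of 62.8% for M vs. RE. The calls on the 10 genes were the same under that scaling.

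**Figure D1:**
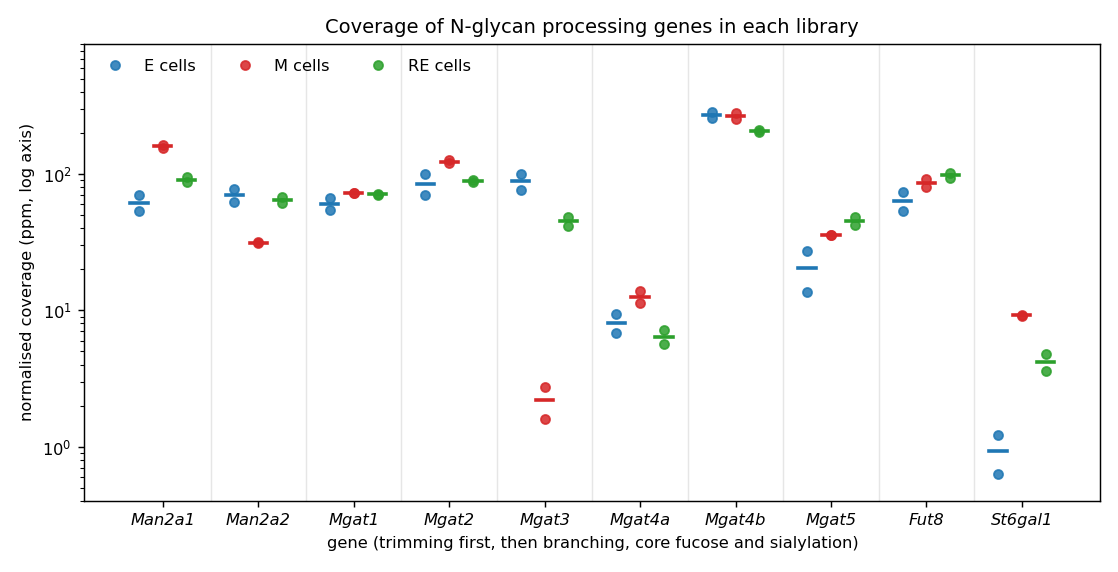
Normalised coverage (ppm, log axis) of the 10 genes in each library, with 2 points per stage and a bar at their mean. *Mgat3* lies between 1.60 and 2.76 in the M cells and above 41 in all E and RE libraries, *St6gal1* is lowest in the E cells, and *Man2a1* and *Man2a2* move in opposite directions.

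*Mgat3* was at 100.2 and 76.2 ppm in the E libraries, at 2.76 and 1.60 in the M libraries and at 48.3 and 41.4 in the RE libraries. The 3 stages were thus fully apart, with the M cells lowest and the RE cells between the others. The coverage behind the M values was 5751 and 3303 bases, so that the lowest value was well above the 150 bases (3 reads' worth) taken as the floor. The replicates in the M cells differed by 0.75 on the log2 scale, a gap that 4.64% of all genes tested reached or passed there. The log2 fold change was −5.31 in E vs. M (standard error 0.26, limma adjusted p = 1.65e-05), a size that 0.432% of all genes tested reached in either direction. For M vs. RE the value was 4.34 (limma adjusted p = 3.58e-05, standard error 0.26). In E vs. RE it was −0.96 (95% interval −1.58 to −0.35, limma adjusted p = 0.0296), which was not called although both RE libraries were below both E libraries. In E vs. RE the value was −0.77 without the first E library and −1.16 without the second, of which the latter was called. It was −1.08 without the first RE library and −0.85 without the second. Among the fits that kept all 6 libraries, *Mgat3* was called in E vs. RE under the following setting. The dependence of each library on GC content and gene length was removed, with the replicate number as a block (−1.15, limma adjusted p = 0.00183). *Mgat3* was not called in E vs. RE with that dependence removed alone (limma adjusted p = 0.0155) or with array weights (0.0656).

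The alpha-mannosidase II genes, whose products take part in the same trimming step, moved in opposite directions. *Man2a1* was at 53.7 and 69.9 ppm in the E libraries, at 155 and 164 in the M libraries and at 87.6 and 94.6 in the RE libraries. It was highest in the M cells, and all 3 stages were apart. Its log2 fold change was 1.38 in E vs. M (standard error 0.16, limma adjusted p = 0.00052). For M vs. RE the value was −0.81, which passed the adjusted p (0.00739 by limma) but not the fold threshold, and in E vs. RE it was 0.57 (95% interval 0.20 to 0.94, limma adjusted p = 0.031). The call in E vs. M was lost without the second M library (limma adjusted p = 0.0108) and with the GC and length dependence removed (log2 fold change 0.96).

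*Man2a2* was at 61.9 and 77.5 ppm in the E libraries, at 31.1 and 31.4 in the M libraries and at 67.5 and 61.6 in the RE libraries. The M libraries were below all others, and the E and RE libraries overlapped. The log2 fold change was −1.15 in E vs. M (standard error 0.15, limma adjusted p = 0.00103) and 1.04 in M vs. RE (standard error 0.15, limma adjusted p = 0.00197). Both were close to the fold threshold. In E vs. RE it was −0.10 (95% interval −0.46 to 0.25, limma adjusted p = 0.636). Without the first or the second M library the fall in the M cells was no longer called (adjusted p = 0.0172 and 0.0166 by limma). The rise in the RE cells was not called without either M library (0.0306 and 0.0268), the first RE library (0.0356) or the second (0.0204).

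As a share of the summed bases of both genes, *Man2a1* took 46.5% and 47.4% in the E libraries, 83.3% and 83.9% in the M libraries and 56.5% and 60.6% in the RE libraries. This share is not corrected for gene length, so that its change between stages can be read and its level cannot. The M libraries stood far above the rest, and the RE libraries lay above the E libraries and did not return to their range.

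*Mgat1* and *Mgat2*, which add the residues that start both antennae, were not called in any comparison. *Mgat1* was at 67.0 and 54.2 ppm in the E libraries, at 73.0 and 72.1 in the M libraries and at 71.0 and 70.7 in the RE libraries. Its log2 fold change was 0.27 in E vs. M (95% interval −0.065 to 0.60, limma adjusted p = 0.168) and −0.035 in M vs. RE (95% interval −0.37 to 0.30, adjusted p = 0.878), and both changed sign when the libraries were scaled by their totals alone (−0.032 and 0.17). *Mgat2* was at 99.7 and 70.1 in the E libraries, at 127 and 119.8 in the M libraries and at 90.0 and 87.1 in the RE libraries. It was highest in the M cells, and the E libraries lay on both sides of the RE libraries. Its log2 fold change was 0.56 in E vs. M (95% interval 0.15 to 0.97, limma adjusted p = 0.0383), −0.48 in M vs. RE (adjusted p = 0.0784) and 0.083 in E vs. RE (adjusted p = 0.749), of which the last changed sign to −0.012 with library totals and to −0.17 without the second E library.

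Among the enzymes that add further branches, *Mgat5* and *Mgat4b* differed in their order over the stages. *Mgat5*, which encodes GnT-V and makes the beta-1,6 branch that carries polylactosamine, was at 13.7 and 27.5 ppm in the E libraries, at 36.0 and 35.7 in the M libraries and at 48.2 and 42.3 in the RE libraries. It was lowest in the E cells and highest in the RE cells, with no overlap between stages. The E replicates differed by 0.996 on the log2 scale, which 7.65% of all genes tested reached or passed there. The log2 fold change was 0.88 in E vs. M (standard error 0.29, limma adjusted p = 0.044), 0.33 in M vs. RE (adjusted p = 0.427) and 1.21 in E vs. RE (95% interval 0.54 to 1.89, adjusted p = 0.0191), and none was called. The size of the difference and its call depended on the E library kept. Without the second E library, the log2 fold change of *Mgat5* was 1.36 in E vs. M and 1.72 in E vs. RE, and both were called. Without the first E library it was 0.38 and 0.72, and with the GC and length dependence removed 0.46 and 0.82. With all 6 libraries kept and weighted by their quality, *Mgat5* was also called in E vs. RE (limma adjusted p = 0.00403).

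*Mgat4a* and *Mgat4b* both encode GnT-IV, which adds the beta-1,4 branch. *Mgat4b* was at 287 and 256 ppm in the E libraries, at 279 and 254 in the M libraries and at 211 and 203 in the RE libraries, so that E and M overlapped and RE was lowest. Its log2 fold change was −0.025 in E vs. M (95% interval −0.33 to 0.28, limma adjusted p = 0.894), −0.37 in M vs. RE (adjusted p = 0.0719) and −0.39 in E vs. RE (adjusted p = 0.0597). The E vs. M value changed sign to 0.19 with the GC and length dependence removed, and also without the first E library (0.057) or the second M library (0.043). *Mgat4a* was at 6.82 and 9.39 ppm in the E libraries, at 13.8 and 11.3 in the M libraries and at 7.14 and 5.63 in the RE libraries. Its values in the M cells were above all others, with a log2 fold change of 0.64 in E vs. M (95% interval 0.11 to 1.17, limma adjusted p = 0.0575) and −0.97 in M vs. RE (adjusted p = 0.0161), neither of which was called. *Mgat4a* took between 2.32% and 4.71% of the summed bases of both genes in every library.

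*Fut8*, the enzyme that adds the core fucose, was at 73.4 and 53.7 ppm in the E libraries, at 92.7 and 79.9 in the M libraries and at 101.3 and 93.9 in the RE libraries. The order of the stages was that of *Mgat5*, with the E cells lowest, and no neighbouring stages overlapped. The log2 fold change was 0.45 in E vs. M (limma adjusted p = 0.0747), 0.18 in M vs. RE (95% interval −0.23 to 0.59, adjusted p = 0.481) and 0.63 in E vs. RE (95% interval 0.22 to 1.05, adjusted p = 0.0322), with no call.

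**Figure D2:**
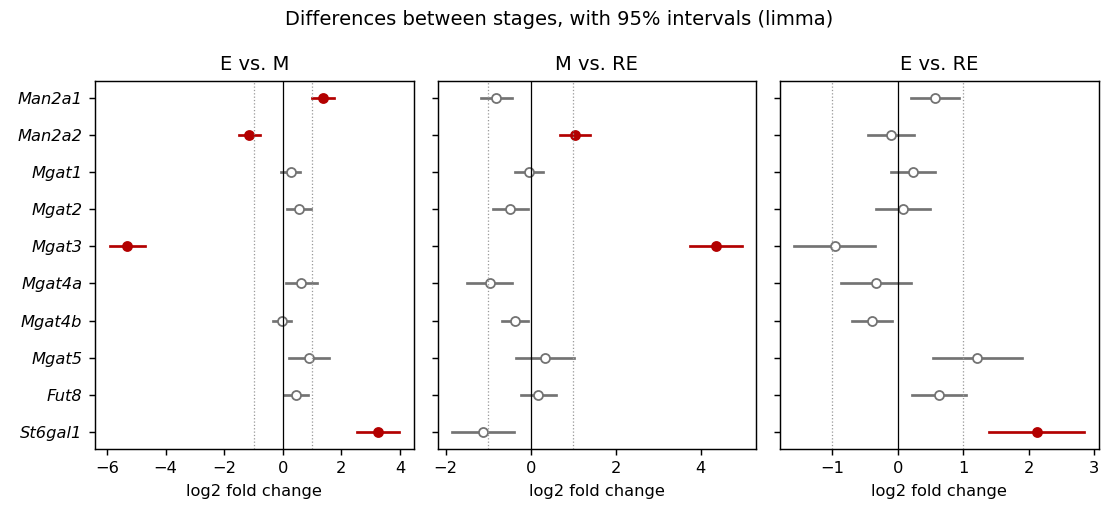
Log2 fold changes of the 10 genes in the 3 comparisons with their 95% intervals from limma. Filled red points are called and open grey points are not, dotted lines mark a log2 fold change of 1 in either direction, and the scales of the panels differ. Of these genes, *Mgat3* is the farthest from 0 in E vs. M (−5.31) and in M vs. RE (4.34).

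*St6gal1* encodes the enzyme that caps N-glycans with alpha-2,6-linked sialic acid. Its start sites are of interest because several promoters are known to drive the gene and summed coverage cannot tell their transcripts apart. RefSeq lists 3 start sites on GRCm38.p6, and the 250 bases upstream of each are shown, on the plus strand, with the 5 letters CAGAC or GTCTG, the core of a Smad site, in capitals.
St6gal1, chr16:23224490-23224739: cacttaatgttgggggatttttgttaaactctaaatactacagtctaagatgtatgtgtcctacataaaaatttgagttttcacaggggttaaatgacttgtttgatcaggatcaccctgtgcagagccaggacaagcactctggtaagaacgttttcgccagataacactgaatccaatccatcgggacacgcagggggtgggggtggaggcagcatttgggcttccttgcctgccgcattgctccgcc
St6gal1, chr16:23225771-23226020: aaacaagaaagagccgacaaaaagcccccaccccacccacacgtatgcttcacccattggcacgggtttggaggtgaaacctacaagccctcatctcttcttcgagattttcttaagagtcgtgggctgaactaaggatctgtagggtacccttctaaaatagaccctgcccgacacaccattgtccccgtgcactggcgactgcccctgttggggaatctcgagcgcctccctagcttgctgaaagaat
St6gal1, chr16:23290220-23290469: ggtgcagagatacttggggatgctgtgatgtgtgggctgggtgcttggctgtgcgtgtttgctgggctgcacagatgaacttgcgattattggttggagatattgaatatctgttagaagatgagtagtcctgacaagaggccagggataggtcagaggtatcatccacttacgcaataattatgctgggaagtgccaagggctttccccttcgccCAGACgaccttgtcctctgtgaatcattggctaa
The capitals occur in the last of the 3 windows, which also held 1 match to TGANTCA outside the capitals. TGANTCA is a loose form of the letters of an AP-1 site, with any base in the middle. The match reads tgaatca, and the stricter AP-1 letters were not counted. CAGGTG or CACCTG, the letters that Snail and Zeb factors bind, and GGGCGG or CCGCCC, those of Sp1, were in none of the 3. Over the 32851 RefSeq windows of the same length, 42.2% held CAGAC on either strand, 6.75% TGANTCA, 17.2% CAGGTG on either strand and 32.7% GGGCGG on either strand. A match is a description of the letters and not of binding. *Mgat3*, *Mgat4b* and *Man2a2* had no entry in the table of promoters.

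*St6gal1* was at 0.625 and 1.22 ppm in the E libraries, at 9.25 and 9.11 in the M libraries and at 4.78 and 3.59 in the RE libraries. The E cells were lowest, the M cells highest, and the RE cells in between without overlap. The values in the E cells rest on 1350 and 2337 bases. The log2 fold change was 3.25 in E vs. M (standard error 0.31, limma adjusted p = 0.000225), and it was called under every setting tried. In E vs. RE it was 2.12 (standard error 0.31, limma adjusted p = 0.00312). This call was lost in a fit of the E and RE libraries alone (limma adjusted p = 0.0168) and without the first or second M library (0.0117 and 0.0116) or the first or second RE library (0.0466 and 0.0222). In M vs. RE the log2 fold change was −1.13 (95% interval −1.85 to −0.40, limma adjusted p = 0.029), which was not called, although it was called in 6 of the 16 other settings.

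*Mgat3* and *Mgat5* encode enzymes that compete for the same glycans, since a bisected glycan is a poor substrate of GnT-V. Their ratio within a library does not depend on how the libraries are scaled. The log2 ratio of *Mgat3* to *Mgat5* bases was 2.87 and 1.47 in the E libraries, −3.71 and −4.48 in the M libraries and 0.0031 and −0.031 in the RE libraries. The M libraries were lowest, and the RE libraries lay between the stages and apart from the E libraries. The difference of means was −6.26 for M minus E, 4.08 for RE minus M and −2.18 for RE minus E, and the closest libraries of E and RE were 1.47 apart. With 2 libraries per stage, a permutation test cannot pass 0.05, and the smallest two-sided exact p is 0.333, so that no test is given. Because the E libraries differed by 1.40 in this ratio, leaving out the first or the second moved RE minus E to −1.49 or −2.88. Of the summed bases of *Mgat3*, *Mgat4a*, *Mgat4b* and *Mgat5*, *Mgat3* made up 24.6% and 20.6% in the E libraries, 0.83% and 0.529% in the M libraries and 15.4% and 14.2% in the RE libraries.

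**Figure D3:**
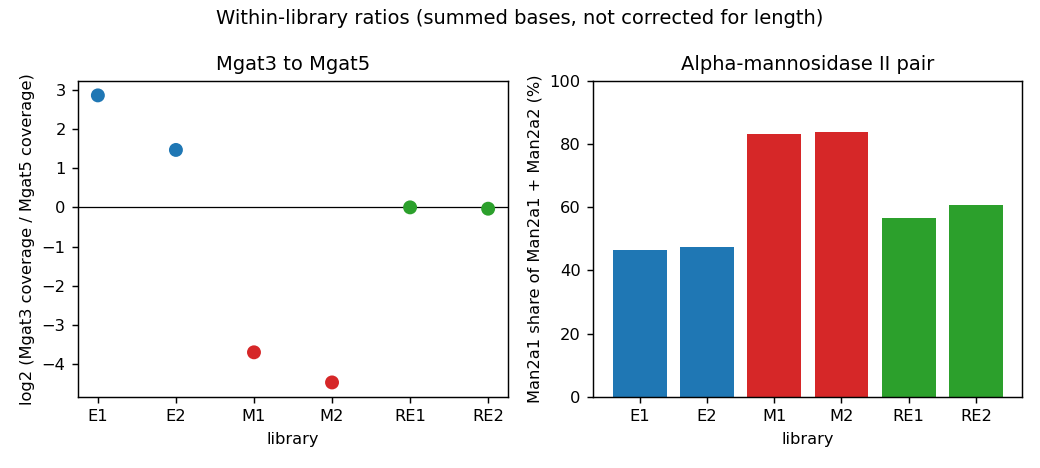
Left, log2 ratio of *Mgat3* to *Mgat5* coverage in each library, and right, the share of *Man2a1* in the summed bases of *Man2a1* and *Man2a2* (%), with E in blue, M in red and RE in green. Ratios are not corrected for gene length, and in both panels the RE libraries lie between the E and the M libraries.

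Levels were compared between genes as ppm per kb of the longest coding transcript, with lengths from a newer annotation than the authors' build. *Mgat4b* was the highest of the 10 genes in every stage, at 112 ± 8.95 ppm per kb (SD, n = 2) for E, 109.9 ± 7.31 for M and 85.2 ± 2.27 for RE, followed by *Mgat2* (32.5 ± 7.99, 47.2 ± 1.94 and 33.9 ± 0.788). *Mgat3* was at 18.9 ± 3.64 ppm per kb in the E cells, where its libraries overlapped those of *Fut8* (18.9 ± 4.16), and was the fifth in order. It was the lowest of the 10 in the M cells, at 0.467 ± 0.175, below *Mgat4a* (1.73 ± 0.248), and in the RE cells it was at 9.61 ± 1.05, overlapping *Man2a2* (9.85 ± 0.643). *St6gal1* was the lowest in the E cells at 0.204 ± 0.0929, and in the RE cells it was at 0.929 ± 0.186, overlapping *Mgat4a* (0.881 ± 0.147). *Mgat5* stood at 2.44 ± 1.15, 4.25 ± 0.0226 and 5.36 ± 0.495 ppm per kb in the E, M and RE cells, below *Man2a1* (8.84 ± 1.64, 22.8 ± 0.945 and 13.0 ± 0.713) in every stage.

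Under a newer annotation, between 0% and 4.14% of the exonic bases of each of the 10 genes lie within exons of another gene, all on the opposite strand. *Man2a2* (with *Hddc3*) and *St6gal1* (with *BC106179*, 4.07%) have the largest overlaps. Whether reads were counted by strand is not given in the sources used here.

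The other steps of the pathway were read from 91 genes in 11 lists, of which 89 were in the table and 84 could be tested. In E vs. M, 9 were called higher and 6 lower (17.9%, against 17% of all genes tested), in M vs. RE 5 and 5 (11.9%, against 12.9%), and in E vs. RE 3 and 4 (8.33%, against 9.37%). The 9 higher in E vs. M and the 5 lower in M vs. RE each include *Gfpt2*, which passed the filter only through the M libraries where it is high. These shares are close to those of all genes tested. The calls of each list below are to be read against the same 17% (E vs. M), 12.9% (M vs. RE) and 9.37% (E vs. RE), also where these are not repeated. The median log2 fold change of the 84 genes was 0.32, −0.29 and 0.0034 in the same order. The counts fell to 8 in E vs. M without either M library, to 2 in M vs. RE without any 1 of the M or RE libraries, and to 0 and 1 in E vs. RE without the first and the second RE library. They rose to 12 in E vs. RE without the second E library, and fell to 4 there without either M library.

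For the early steps in the endoplasmic reticulum, the calls stand beside 17% (E vs. M), 12.9% (M vs. RE) and 9.37% (E vs. RE) of all genes tested called either way. Of 19 genes that assemble the lipid-linked precursor, *Alg10b*, which adds the last glucose, rose in E vs. M (1.16, limma adjusted p = 0.00108) and no other was called in any comparison. Of 12 genes of the oligosaccharyltransferase, which transfers the precursor to protein, *Krtcap2* was lower in RE than in E (−1.63, limma adjusted p = 0.000481). It was at 74.2 and 73.8 ppm in the E libraries, 40.1 and 34.4 in the M libraries and 24.0 and 23.6 in the RE libraries. In M vs. RE, limma called 0 of the 12, but 10 were lower at an unadjusted p below 0.05 (42.7% of all genes tested differed either way), with a median log2 fold change of −0.43 against −0.017 over all genes tested. Of 11 genes of glucose trimming and folding control, limma called 0 in each comparison. At an unadjusted p below 0.05, 6 of these 11 were higher in M than in E and 5 lower in RE than in M, where 50.9% and 42.7% of all genes tested differed either way. *Alg10b* was not called without either M library, with library totals or with the GC and length dependence removed (limma adjusted p up to 0.0203), and *Krtcap2* was not called without either RE library (up to 0.0141).

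Of the 3 Golgi class I mannosidases, which act before *Mgat1*, *Man1c1* fell 8.49-fold in the M cells (−2.95 on the log2 scale, limma adjusted p = 7.03e-05) and stayed lower in the RE cells (−1.91, adjusted p = 0.00122). It was at 7.07 and 7.17 ppm in the E libraries, 0.91 and 0.768 in the M libraries and 1.90 and 1.76 in the RE libraries. *Man1a* and *Man1a2* were not called. The E vs. RE call was lost without either RE library (limma adjusted p up to 0.0225). The small rise of *Man1c1* from M to RE (1.04, limma adjusted p = 0.00956) was lost under 7 of 16 other settings, among them the replicate block (0.0129) and the fits without any 1 of the M or RE libraries, with an adjusted p of up to 0.0902.

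Among 6 genes that extend the antennae with galactose and polylactosamine, *B4galt1*, the main galactosyltransferase of N-glycans, rose in E vs. M from 48.5 and 64.9 to 136 and 134 ppm (1.27, limma adjusted p = 0.000856). Without either M library its adjusted p reached up to 0.0149, and the call was also lost with library totals. *B4galt4* was low throughout and was called lower in E vs. M (−1.35, limma adjusted p = 0.00793) and in E vs. RE (−1.65, adjusted p = 0.00571). Its calls were lost under 9 and 8 of 16 other settings, including the fits without any 1 of the M or RE libraries (limma adjusted p up to 0.067 and 0.0513).

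*St3gal4*, which adds alpha-2,3-linked sialic acid, moved in the direction opposite to that of *St6gal1* in E vs. M. In E vs. RE its log2 fold change was −0.12 (limma adjusted p = 0.521), whereas *St6gal1* was called higher there. *St3gal4* was at 79.4 and 67.1 ppm in the E libraries, at 27.5 and 27.6 in the M libraries and at 66.2 and 67.7 in the RE libraries. The M libraries were lowest, and E and RE overlapped. It fell in E vs. M (−1.40, standard error 0.14, limma adjusted p = 0.000244) and rose in M vs. RE (1.28, standard error 0.14, adjusted p = 0.000463), the latter with an adjusted p of up to 0.011 without any 1 of the M or RE libraries. *St3gal3* and *St3gal6*, the other tested genes of that list, were not called. *Fut1*, which adds alpha-1,2-linked fucose, fell from 9.52 and 13.2 ppm in the E cells to 1.09 and 1.15 in the M cells and was at 1.32 and 1.62 in the RE cells. The log2 fold change was −3.21 in E vs. M (limma adjusted p = 7.93e-05) and −2.86 in E vs. RE (adjusted p = 0.000493), the latter not called without the first RE library (0.0134). The branching paralog *Mgat5b* never passed 100 bases and could not be tested.

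Nucleotide sugars are the donors of these reactions, and UDP-GlcNAc is that of all the *Mgat* enzymes. Of 14 genes of this supply, *Gfpt1* and *Uap1* rose and *Gmds* fell in the M cells, and *Gfpt2* was also called but entered the test only through its M libraries. With *Gfpt2*, 3 were called higher and 1 lower in E vs. M, against 8.58% and 8.39% of all genes tested. *Gfpt1*, the entry enzyme of the hexosamine pathway, rose from 26.3 and 38.7 to 88.0 and 87.8 ppm (1.46, limma adjusted p = 0.00102), and *Uap1*, which makes UDP-GlcNAc, from 146 and 111 to 320 and 284 (1.24, adjusted p = 0.00109). *Gfpt2*, a second entry enzyme, was at or under the floor in the E and RE libraries and at 0.604 and 0.52 ppm in the M libraries, at least 7.20-fold higher than in the E cells and at least 8.23-fold higher than in the RE cells. Its M vs. RE call was lost without either RE library (limma adjusted p up to 0.0252) and both calls were lost with a pseudocount of 1, and that in E vs. M also with array weights (0.0203). *Gmds*, the first enzyme towards GDP-fucose, fell from 180.2 and 113 to 57.2 and 51.1 ppm (−1.40, limma adjusted p = 0.00203). In the RE cells *Uap1* fell to 114 and 125 ppm (−1.34 in M vs. RE, limma adjusted p = 0.000971) and *Gmds* rose to 186 and 171 (1.72, adjusted p = 0.001). *Gfpt1* remained higher than in the E cells, at 72.0 and 64.2 ppm (1.09, limma adjusted p = 0.00616), a call lost under 10 of 16 other settings, in 5 of which a library other than the second E library was left out (adjusted p up to 0.0799). Without either M library the E vs. M calls of *Gfpt1*, *Uap1* and *Gmds* were lost (limma adjusted p up to 0.0148, 0.019 and 0.0259), that of *Uap1* also with library totals, as were the M vs. RE calls of *Uap1* and *Gmds* without any 1 of the M or RE libraries (up to 0.0202 and 0.0178).

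Galectins bind the galactose-bearing antennae, and 5 of the 6 listed could be tested. In E vs. M, 1 was called higher and 1 lower, against 8.58% and 8.39% of all genes tested. In M vs. RE, 1 was called higher and 0 lower, against 8.08% and 4.79%, and in E vs. RE 1 and 0, against 6.2% and 3.17%. *Lgals3* was at 428 and 293 ppm in the E libraries, 97.7 and 102.5 in the M libraries and 342 and 355 in the RE libraries, so that the M cells were lowest. It fell in E vs. M (−1.82, limma adjusted p = 0.000312) and rose in M vs. RE (1.80, adjusted p = 0.000389), and both calls were made under every setting tried. *Lgals9* rose from 39.0 and 40.0 ppm in the E cells to 105 and 90.3 in the M cells (1.30, limma adjusted p = 0.000342) and was at 105 and 96.2 in the RE cells (1.35 in E vs. RE, adjusted p = 0.000827). The E vs. RE call of *Lgals9* was lost without either RE library (up to 0.0232).

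Of 9 surface glycoproteins that are known to carry bisected or branched N-glycans, 3 were called higher in the M cells and 0 lower, against 8.58% and 8.39% of all genes tested. At an unadjusted p below 0.05, limma gave 5 higher and 0 lower in E vs. M, against 50.9% of all genes tested either way. In M vs. RE, 1 was called higher and 3 lower, against 8.08% and 4.79% of all genes tested. In E vs. RE, 1 was called higher and 0 lower, against 6.2% and 3.17%. There, limma gave 7 higher and 0 lower at an unadjusted p below 0.05, against 43.5% of all genes tested either way. The median log2 fold change of the 9 in E vs. RE was 0.72, against 0.0079 over all genes tested. The integrin subunits *Itga5* and *Itgb1*, which form the fibronectin receptor, rose by 3.53 (limma adjusted p = 9.79e-06) and 1.56 (adjusted p = 0.000208) on the log2 scale in E vs. M. *Cdh2*, N-cadherin, rose by 1.87 (limma adjusted p = 0.000467). All 3 fell from M to RE (−2.65, −1.12 and −1.16, adjusted p = 2.43e-05, 0.00117 and 0.00527 by limma), of which the calls on *Itgb1* and *Cdh2* were lost without any 1 of the M or RE libraries (up to 0.026 and 0.0584) and with library totals, and that on *Cdh2* also with no filter. *Tgfbr2*, a receptor of TGFβ, was at 106 and 150 ppm in the E libraries, 132 and 129 in the M libraries and 278 and 262 in the RE libraries, and rose in M vs. RE (1.04, limma adjusted p = 0.00381) and in E vs. RE (1.09, adjusted p = 0.00438). Both were close to the fold threshold and were lost without any 1 of the M or RE libraries (up to 0.0517 and 0.0634), and the E vs. RE call also without the first E library (log2 fold change 0.84), with library totals, in a fit of the 2 groups alone and with the GC and length dependence removed, 9 of 16 settings in all. *Cdh1*, which encodes E-cadherin and is named here because its glycans are a known target of GnT-III, was at 278 and 327 ppm in the E libraries, 244 and 303 in the M libraries and 271 and 266 in the RE libraries, so that the E and M libraries overlapped.

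**Figure D4:**
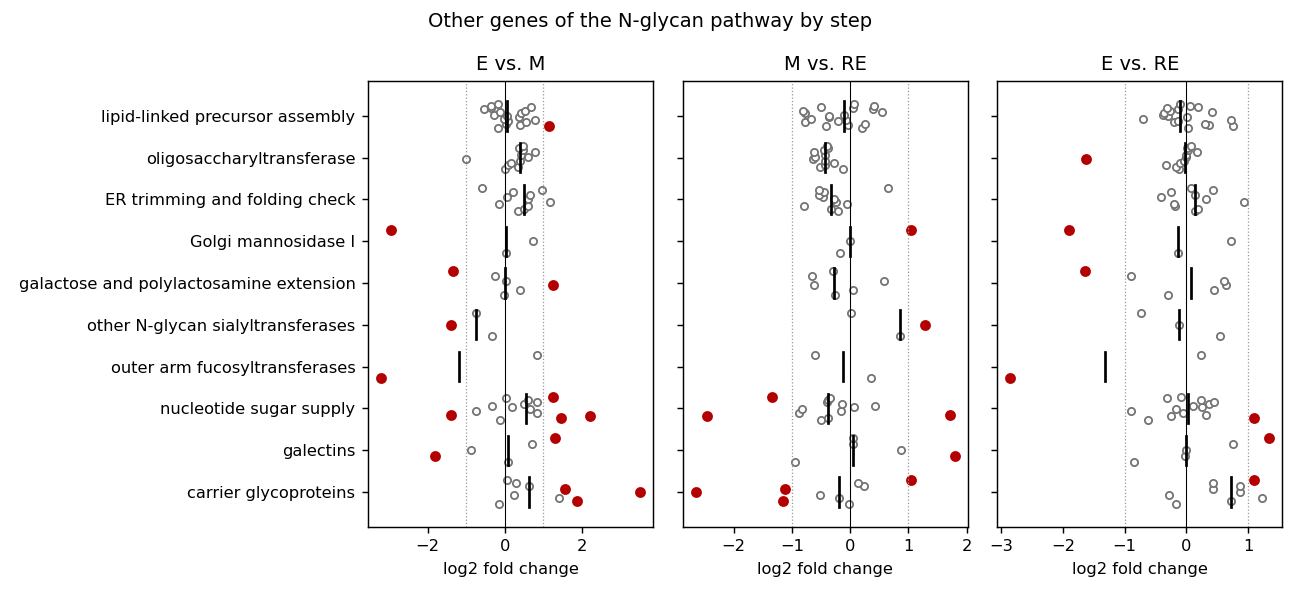
Log2 fold changes of the other tested genes of the pathway, by step, in the 3 comparisons, with called genes in filled red, uncalled genes as open grey points and the median of each list as a black bar. Carrier glycoproteins are the 9 listed surface proteins, dotted lines mark a log2 fold change of 1 in either direction, and the scales of the panels differ.

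The genes whose course was most like that of *Mgat3* were sought among 10095 other genes whose mean log2 value was 2 or more, by the root mean square difference of log2 values centred on each gene's mean over the 6 libraries. The 5 nearest were *Lcn2* (0.24), a secreted iron-carrier binding protein, *Sult2b1* (0.28), a cholesterol sulphotransferase, *Fam43a* (0.33), *Bmp4* (0.42), a ligand of the TGFβ superfamily, and *Ivd* (0.43), an enzyme of leucine breakdown. *Lcn2* was at 31.3 and 21.2 ppm in the E libraries, 0.601 and 0.574 in the M libraries and 13.9 and 15.3 in the RE libraries. *Sult2b1* was at 27.8 and 22.5, 0.407 and 0.428, and 11.4 and 8.73 ppm in the same order. *Bmp4* differed from *Mgat3* in the RE cells, where it was at 47.0 and 41.1 ppm, against 46.5 and 40.4 in the E cells. These genes were chosen for their course, so that no test is given.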

How the data were processed

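The authors aligned unique reads with Bowtie and TopHat2 to mouse genome build NCBI m37 and deposited 1 table of whole numbers per gene and library, without normalization. How reads were summed per gene, with which annotation and which versions is not given in the sources used here. The deposited values behave as coverage (signal), that is, bases summed per gene: between 44.8% and 48.4% of the values from 1 to 400 in a library divide evenly by 50. The read length of 50 bases was taken from these values. edgeR, the study's tool, was not run, since it needs read counts.

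Coverage was expressed in ppm after unweighted TMM normalization (trimming 30% of the log ratios and 5% of the mean levels on either side), with factors from 0.871 to 1.12. Genes reaching 500 bases in 2 or more libraries (13893) were tested with limma 3.58.1 in R 4.3.3 on log2(ppm + 0.1), all 6 libraries in 1 fit, group only, with a trend on mean expression and Benjamini-Hochberg adjustment. A fold change on this scale understates that of low genes. Differences are M minus E, RE minus M or RE minus E. In a simulation of E vs. M with changes of 2 on the log2 scale, 13893 genes were run, 60.5% of the 200 changed genes were called and 0 others. The simulation gave each gene the same spread in every stage, with normal noise. In the data the E replicates were less alike than those of M and RE, so that these figures need not hold for them. Floors from depth cover counting error only.

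The members, the lists and the tests were chosen with earlier results of these data known. Genes named are the 10 members, up to 4 called genes of each list by size of change, and the 5 genes most like *Mgat3*. *Cdh1* and the uncalled paralogs were named after their values were seen. Of the 91 list genes, 6 were matched by an older symbol. Transcript lengths, GC content (93.3% of the genes tested) and overlaps came from GENCODE M21 (GRCm38), and promoters from RefSeq for 7 of the 10 genes. Neither was lifted to the authors' build. Alternatives were pseudocounts of 0.025 and 1, median-of-ratios factors, library totals, no filter, a fit restricted to the 2 groups compared, a replicate block, array weights, removal of the dependence on GC content and length (alone or with the block), a fold of 1.5, an adjusted p of 0.05, and leaving out each library. For the list genes they were added after the data were seen.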

Additional observations from a re-analysis of the deposited data

How the results depend on the processing

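Of the 30 differences of the 10 genes, 17 kept their direction and their side of the threshold under all 16 settings. Scaling by library totals turned *Mgat1* to −0.032 in E vs. M and 0.17 in M vs. RE and *Mgat2* to −0.012 in E vs. RE, and removing the GC and length dependence, with or without the block, turned *Mgat4b* to 0.19 in E vs. M. Without 1 library at a time, *Mgat4b* ran from −0.13 to 0.057 in E vs. M, and *Mgat2* (−0.17 to 0.34) and *Man2a2* (−0.27 to 0.063) changed sign in E vs. RE. The fit of only the 2 groups compared called 525 DEGs in E vs. RE in place of 1302, 0 of the 10 genes in place of 1 and 4 of the list genes in place of 7. In M vs. RE the same fit called more, with 2327 DEGs in place of 1789 and 3 of the 10 genes in place of 2. In E vs. M it called 1798 DEGs in place of 2358, and 4 of the 10 genes as before. Array weights, the GC and length dependence removed with the block, and an adjusted p of 0.05 each called 2 of the 10 genes in E vs. RE. At a fold of 1.5, the list genes called numbered 17 (M vs. RE) and 14 when E was compared with RE. With a pseudocount of 1, the log2 ratio of *Mgat3* to *Mgat5* differed by −5.67 for M minus E and by 3.54 for RE minus M.

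Without 1 library at a time, DEGs numbered 945 to 3362 (E vs. M), 683 to 2337 (M vs. RE) and 44 to 2348 in the comparison of E with RE. They moved by over 1.5 times in E vs. M without the first (945) or second M library (1003), and in M vs. RE without the first or second M (718 and 767) or RE library (683 and 821). In E vs. RE they did so without the second E (2348), the first or second M (673 and 676) or the first or second RE library (44 and 160). A stage left with 1 library was assumed to vary like the others. Of the 10 genes, 2 to 5, 1 to 3 and 0 to 3 were then called, and of the list genes 8 to 20, 2 to 10 and 0 to 12. The ratio of *Mgat3* to *Mgat5* ran from −6.96 to −5.56 for M minus E, from 3.69 to 4.46 for RE minus M and from −2.88 to −1.49 for RE minus E. The cause of these changes was not tested.

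Across genes, deviations from the group means of libraries with the same number had a correlation of 0.27 (E with M), 0.058 (E with RE) and 0.12 (M with RE). The numbers were not taken to pair the libraries, although all of these values were positive. With 2 libraries centred on their mean, the correlation with the other number is the same value with the opposite sign. With the replicate number as a block, 2431 DEGs were called in E vs. M, with 1830 for M against RE and 1284 for E against RE. The block changed no call on the 10 genes, and of the calls on the list genes it ended that of *Man1c1* in M vs. RE.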
